A study of Mus musculus with 12 samples.

Results

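Sdc1, Sdc4 and Gpc6 encode core proteins of heparan sulphate proteoglycans at the cell surface, and their transcript levels are described here in a mouse osteoblast line and a mouse osteocyte line. They were picked by gene symbol, 3 genes of 4605 named on the array, each measured by 1 of its 5030 spots. The choice rested on measured values: an earlier processing of the same arrays had shown Sdc1 and Sdc4 higher and Gpc6 lower in the osteocyte line. Their differences between the lines are therefore given as a description, with no test. Tests of these 3 genes are kept for culture density, although the 2T3 values of Gpc6 at each density had been seen as well. For that reason nothing is read from the 2T3 density test of Gpc6. The line differences at each density were also known. The difference between density effects is made from them, and nothing is read from its test.

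A heparan sulphate proteoglycan is a core protein that carries long, sulphated sugar chains. The chains bind growth factors, chemokines and Wnt proteins and hold them near their receptors, and in bone they are known to modulate FGF, BMP and Wnt signalling. Syndecans, the family of Sdc1 and Sdc4, span the membrane and work beside integrins in adhesion, with Sdc4 a component of focal adhesions. Glypicans, the family of Gpc6, are held on the outer face of the membrane by a lipid anchor.

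Total RNA of the lines 2T3 and MLO-Y4 was measured on 12 arrays, 3 in each of 4 groups. 2T3 is an osteoblast line from a transgenic mouse whose SV-40 T antigen is driven by the BMP-2 promoter, and MLO-Y4 is an osteocyte line from a transgenic mouse with T antigen behind the osteocalcin promoter. All groups thus carry T antigen, and each cell type is represented by 1 immortalised line, so that cell type and line cannot be told apart. The labels call the 2T3 groups C0 and low, and those of MLO-Y4 are called low and high. The osteoblast comparison was taken as sparse against confluent cells, and the osteocyte comparison as cells with gap junctions against cells without. C0 was read as confluent, and high as the group with gap junctions, only because the other group of each line is called low. Arrays are numbered 1 to 3 in each group, and the labels do not say whether a number is a separate culture, so each p-value reflects array-to-array spread alone, and this spread may be technical.

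Values are spot intensities after quantile normalization, which gives every array the same distribution. The detection limit of an array was set at the magnitude of the lowest value on it, since background had been subtracted and values ran from -23 to 53055. The MLO-Y4 low and high arrays numbered 1 stood apart, with 38.1% and 37.9% of spots above this limit and a normalized limit of 45.1, against 50.9% to 74.8% and limits of 5.83 to 21.0 on the other 10 arrays. Total intensity per array ran from 212491 to 1680310. The lowest was on the 2T3 low array numbered 3, where the median was 4 and the limit 3 before normalization. The next lowest total was 630205, on the MLO-Y4 low array numbered 2. Levels for means and tests were floored at the 25th percentile of all normalized values, an intensity of 6.08, and taken to log2. The number of arrays limits the precision, and levels are compared within a gene, never between genes.

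Sdc1 was at a low level in 2T3 and at a higher level in MLO-Y4 at both densities. Its normalized intensity was 21.9, 39.8 and 13 on the 2T3 C0 arrays 1 to 3 and 1.83, 46.4 and 8.25 on the 2T3 low arrays. On the MLO-Y4 low arrays it was 123, 113 and 79.6, and on the MLO-Y4 high arrays 201, 92.0 and 108. Every MLO-Y4 array was above every 2T3 array. The spot was above the detection limit on 3 of 3 C0 arrays and on 6 of 6 MLO-Y4 arrays, but on 1 of 3 2T3 low arrays, so the 2T3 low level rests partly on values not above background. In mean log2 intensity Sdc1 was 4.49 ± 0.81 in C0, 3.73 ± 1.58 in 2T3 low, 6.69 ± 0.33 in MLO-Y4 low and 6.98 ± 0.60 in MLO-Y4 high (SD, n = 3 each). The order of groups was MLO-Y4 high, MLO-Y4 low, C0 and 2T3 low. Neighbours within a line overlapped. The difference between the lines was 2.73 on the log2 scale (6.61-fold), 2.96 between the low groups and 2.49 between the C0 and high groups. The value between the low groups ran from 2.58 to 3.80 with each array left out, and was highest without 2T3 low replicate 2, the array with the highest 2T3 level. In culture RNA of this kind, fewer cells that make a transcript and less transcript per cell cannot be told apart.

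Sdc4 was above the detection limit on all 12 arrays and was higher in MLO-Y4 at both densities. Its normalized intensity was 86.6, 26.2 and 127 on the C0 arrays and 57.8, 115 and 96.2 on the 2T3 low arrays. It was 445, 211 and 592 on the MLO-Y4 low arrays and 410, 180 and 457 on the MLO-Y4 high arrays. The lowest MLO-Y4 value lay above the highest 2T3 value, and array 2 was the lowest of its group in C0 and in both MLO-Y4 groups. Mean log2 intensity was 6.05 ± 1.19 in C0, 6.43 ± 0.51 in 2T3 low, 8.58 ± 0.77 in MLO-Y4 low and 8.34 ± 0.73 in MLO-Y4 high (SD, n = 3 each). MLO-Y4 low was the highest group, followed by MLO-Y4 high, 2T3 low and C0, with overlap within each line. The lines differed by 2.22 (4.66-fold), by 2.15 at low density and by 2.29 between the C0 and high groups. The last value was 1.63 without C0 replicate 2.

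The bases before the start of the 2 syndecan genes are shown because Sdc1 and Sdc4 were both higher in MLO-Y4. They are RefSeq promoter windows on GRCm38.p6, 250 bases before the start, read 5′ to 3′ on the strand of the gene, Sdc1 at chr12:8771146-8771395 on the plus strand and Sdc4 at chr2:164443189-164443438 on the minus strand. Capitals mark 3 motifs. They are the GC box, which reads GGGCGG on either strand, the kappaB motif of NF-kappaB, and the core of the TATA box, searched for in these windows as TATAA.
Sdc1: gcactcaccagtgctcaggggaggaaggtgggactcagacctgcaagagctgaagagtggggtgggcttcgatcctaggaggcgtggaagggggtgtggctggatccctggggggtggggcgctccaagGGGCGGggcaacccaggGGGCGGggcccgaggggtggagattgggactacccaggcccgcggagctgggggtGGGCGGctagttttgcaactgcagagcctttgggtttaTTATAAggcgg
Sdc4: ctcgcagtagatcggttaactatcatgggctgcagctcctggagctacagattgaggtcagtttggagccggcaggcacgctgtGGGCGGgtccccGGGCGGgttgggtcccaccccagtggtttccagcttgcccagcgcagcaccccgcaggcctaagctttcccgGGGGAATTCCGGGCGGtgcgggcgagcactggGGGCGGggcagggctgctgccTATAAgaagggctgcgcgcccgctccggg
Motifs were searched on both strands. The Sdc1 window held 3 GC boxes, at 121, 104 and 49 bases before the start, and TATAA once on each strand, overlapping. The Sdc4 window held 4 GC boxes, 1 TATAA at 29 bases and 1 kappaB motif at 82 bases, next to the GC box at 72 bases. Of 32851 promoter windows of this length, 32.7% held a GC box, 22.8% TATAA and 3.90% the kappaB motif. CCAAT (33.8% of windows) and the E-box CANNTG (66.2%) each occurred once in Sdc1 and not in Sdc4, and the AP-1 motif TGANTCA (6.75%) in neither. These matches describe letters only. Both windows were rich in G and C, at 66% for Sdc1 and 68% for Sdc4.

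Gpc6 had the opposite pattern, with its highest level in the C0 arrays of 2T3 and levels near or below background in MLO-Y4. Its normalized intensity was 436, 223 and 138 on the C0 arrays and 60.5, 56.8 and 53.3 on the 2T3 low arrays. On the MLO-Y4 low arrays it was 30.4, 14.5 and -0.583, and on the MLO-Y4 high arrays 0, 0 and 14.1. The C0 arrays did not overlap with the 2T3 low arrays, and all 2T3 arrays lay above all MLO-Y4 arrays. On 2T3 low array 3, the dimmest array, the 53.3 was an intensity of 9 before normalization, against a limit of 3. The closeness of the 2T3 low values therefore rests partly on a coarse reading. The spot was above the limit on 6 of 6 2T3 arrays, on 1 of 3 MLO-Y4 low arrays and on 0 of 3 MLO-Y4 high arrays. Mean log2 intensity was 7.89 ± 0.83 in C0, 5.83 ± 0.091 in 2T3 low, 3.80 ± 1.16 in MLO-Y4 low and 3.01 ± 0.70 in MLO-Y4 high (SD, n = 3 each), which is also the order of the groups. The last 2 groups overlapped.

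Between the lines Gpc6 differed by -3.46 on the log2 scale, by -2.03 between the low groups and by -4.88 between the C0 and high groups. Since 1 of 6 MLO-Y4 arrays had the spot above its limit, the MLO-Y4 side of these differences is set largely by the floor and by background readings. MLO-Y4 high had only a bound, and set against its detection limits Gpc6 was at least 12.1-fold lower there than in C0. The value between the low groups was -1.43 without MLO-Y4 low replicate 3. The RefSeq promoter table used here holds no entry for Gpc6.

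**Figure D1:**
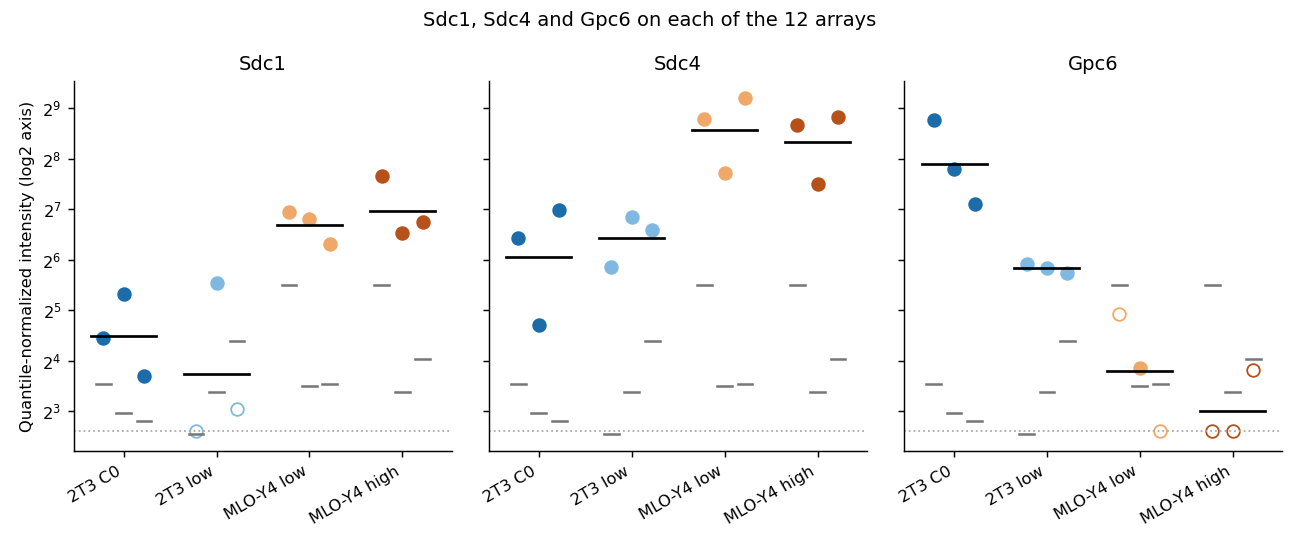
Quantile-normalized intensity of Sdc1, Sdc4 and Gpc6 on each of the 12 arrays (points, log2 axis), by group, with black bars at the mean of log2 values, grey dashes at each array's detection limit, open circles for values not above that limit and a dotted line at the floor. Sdc1 and Sdc4 lie higher on all 6 MLO-Y4 arrays than on any 2T3 array, and Gpc6 lies lower.

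Quantile normalization keeps the order of spots within an array, so the rank of a spot restates its normalized level without a scale. Sdc1 stood between the percentiles 15.4 and 62.0 of its array in 2T3 and between 71.1 and 84.5 in MLO-Y4. Sdc4 stood between 51.5 and 78.4 in 2T3 and between 83.2 and 93.6 in MLO-Y4. Gpc6 stood between 64.4 and 91.6 in 2T3 and between 9.67 and 54.4 in MLO-Y4. Among all spots, 206 (4.1%) were higher and 88 (1.75%) lower in MLO-Y4 without overlap between the lines. Since the 3 genes were chosen on this contrast, nothing is read from that comparison.

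The line differences kept their direction under every setting tried, and their size moved. With array medians made equal over all spots, Sdc1 differed by 3.41, Sdc4 by 2.95 and Gpc6 by -3.41. With medians made equal over the 1253 spots above the limit on all arrays, the values were 2.56, 2.09 and -4.04. An offset of 50 in place of the floor gave 1.24, 1.64 and -1.58, since it compresses dim spots. Leaving out the 4 arrays numbered 1, which include the 2 that stood apart, gave 2.26, 2.02 and -3.49. The scalings matter here because equal medians gave the spots above the limit on all arrays a median line difference of 0.79, compared with 0.04 for quantile normalization and -0.07 for medians over those spots.

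**Figure D2:**
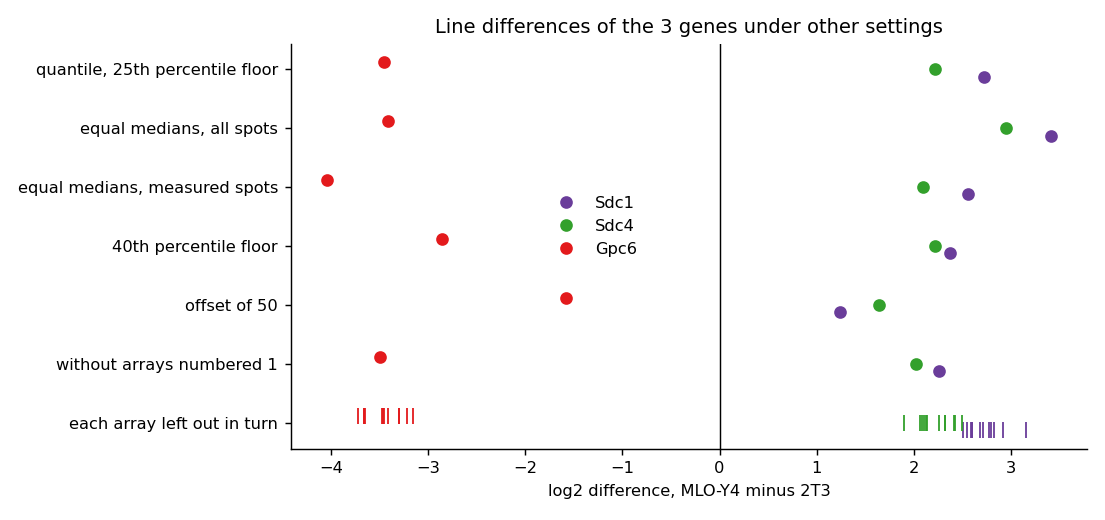
Log2 difference between MLO-Y4 and 2T3 (x axis) for Sdc1, Sdc4 and Gpc6 under each setting (y axis), with ticks for the fits that leave out 1 array each. Sdc1 and Sdc4 stay above 0 and Gpc6 below 0 in every setting, and the offset of 50 gives the smallest sizes, 1.24, 1.64 and -1.58.

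Culture density was tested with limma across all 5030 spots, with Benjamini-Hochberg adjustment and a threshold of 0.05 on the adjusted p. No spot passed (0%) in 2T3 C0 against low, in MLO-Y4 high against low or in the difference between these effects. At an unadjusted p under 0.05 there were 266, 116 and 145 spots. Gpc6 was 4.18-fold higher in C0 than in 2T3 low (log2 2.06, SE 0.63, 95% interval 0.67 to 3.46), with a limma adjusted p of 0.929. The 3 C0 arrays did not overlap with the 3 low arrays for Gpc6, nor did they for 245 of all spots that were higher in C0 (4.87%) and 210 that were lower (4.17%). The 2T3 values of Gpc6 had been seen beforehand, so nothing is read from its test or from this lack of overlap. Sdc1 differed between C0 and low by 0.76 (interval -0.87 to 2.39, limma adjusted p = 0.984) and Sdc4 by -0.38 (interval -1.83 to 1.07, limma adjusted p = 0.996). With each array left out, Sdc1 ran from 0.25 to 1.58, and Sdc4 changed sign, from -0.89 to 0.29. The intervals of both genes span 0 and allow changes of over 1 log2 unit in either direction for Sdc4 and upward for Sdc1.

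In MLO-Y4 none of the 3 genes passed the density test. The difference between high and low was 0.28 for Sdc1 (95% interval -1.34 to 1.91), -0.24 for Sdc4 (-1.69 to 1.21) and -0.79 for Gpc6 (-2.18 to 0.60), each with a limma adjusted p of 1. High and low arrays overlapped for all 3 genes; across all spots 121 (2.41%) were higher and 106 (2.11%) lower in high without overlap. Between same-numbered MLO-Y4 arrays, which deviated together from their group means, high minus low was -0.12, -0.23 and -0.37 for Sdc4, lower in 3 of 3 pairs. It was 0.70, -0.29 and 0.44 for Sdc1 and -2.32, -1.25 and 1.21 for Gpc6. With the replicate number as a block within the 6 MLO-Y4 arrays, the limma adjusted p was 0.804 for Sdc4, 0.809 for Sdc1 and 0.815 for Gpc6. The Gpc6 value compares groups near or under the detection limit. The density effect of Gpc6 was lower in MLO-Y4 than in 2T3 by 2.85 log2 units (-2.85, SE 0.88, interval -4.82 to -0.88), with a limma adjusted p of 1. Without the arrays numbered 1 the value was -1.67 (limma adjusted p = 0.965). For each of the 3 genes this contrast is the line difference between the C0 and high groups less that between the low groups. Those differences were known when the genes were chosen, so nothing is read from this test. For Sdc1 the effects differed by -0.48 (interval -2.78 to 1.82) and for Sdc4 by 0.14 (interval -1.91 to 2.19), again with limma adjusted p of 1.

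**Figure D3:**
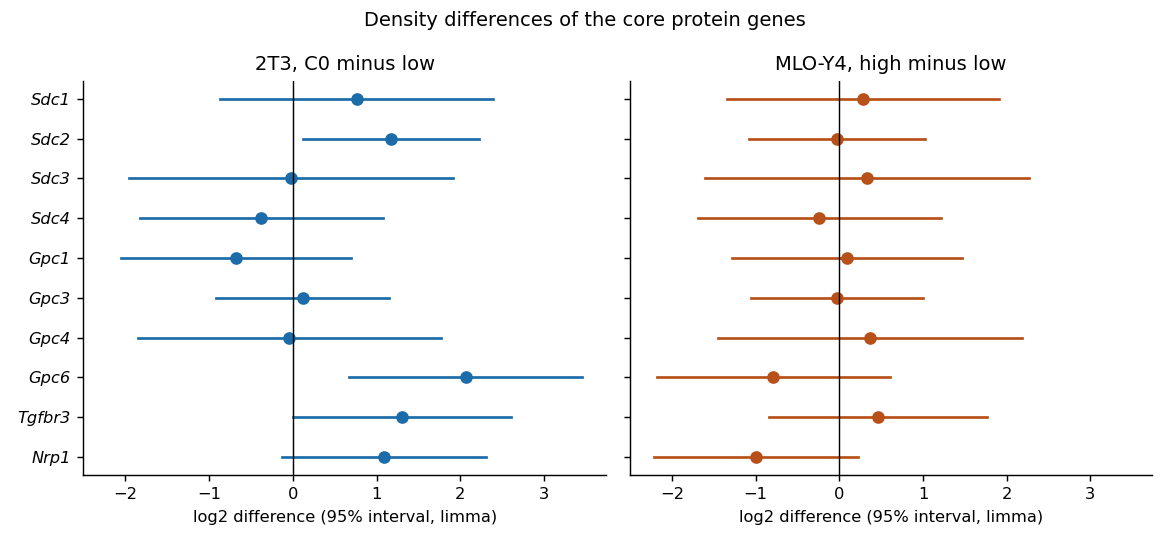
Log2 difference between the denser and the low group (x axis) for 10 core protein genes, in 2T3 (left) and MLO-Y4 (right), with points at the limma estimate and lines for the 95% interval. Gpc6 has the highest estimate in 2T3, 2.06, and no gene passes the adjusted threshold in either line. The 2T3 values of Gpc6 had been seen beforehand.

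The other core proteins were taken from a list of 16 genes, of which 10 had a spot, Sdc1, Sdc4 and Gpc6 included, and 9 were above the limit on at least 6 arrays. Across all spots, 468 passed between MLO-Y4 and 2T3 (9.3%), 293 higher (5.83%) and 175 lower (3.48%). That split, 62.6% higher, depended on the scaling and was 81.5% with equal medians and 43.8% with medians over the spots above the limit on all arrays. Of the 7 core protein genes not chosen on this contrast, 1 rose and 0 fell, with a median log2 difference of -0.46 against -0.032 over all spots.

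Tgfbr3, the betaglycan gene whose product presents TGF-beta and can carry heparan sulphate, was the one that passed. Its normalized intensity was 168, 103 and 70.2 in C0, 111, 24.1 and 30.3 in 2T3 low, 388, 440 and 244 in MLO-Y4 low and 604, 520 and 345 in MLO-Y4 high. The lines did not overlap. Tgfbr3 rose 5.98-fold in MLO-Y4 (log2 2.58, SE 0.41, limma adjusted p = 0.00328), from a geometric mean of 67.9 to 407.

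The other syndecans, Sdc2 and Sdc3, did not pass the threshold between the lines, a contrast on which Sdc1 and Sdc4 were not tested. Sdc2, the main syndecan of many mesenchymal cells, was 233, 189 and 70.2 in C0 and 52.5, 74.0 and 70.1 in 2T3 low, against 175, 143 and 200 in MLO-Y4 low and 194, 109 and 222 in MLO-Y4 high. The lines overlapped, with a difference of 0.80 (SE 0.33, limma adjusted p = 0.201, and 0.0498 with equal medians). Sdc3, best known from neural tissue, differed by -1.70 (SE 0.61, limma adjusted p = 0.132). Only 2 of 6 MLO-Y4 arrays had it above the limit, and its limma adjusted p was 0.0260 without MLO-Y4 high replicate 2, the array with its highest MLO-Y4 level. Whether Sdc1 or Sdc4 differ from Sdc2 or Sdc3 in their line difference was not tested.

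Among the other glypicans, Gpc1 differed between the lines by -0.81 (SE 0.44, limma adjusted p = 0.342) and Gpc4 by 1.16 (SE 0.58, limma adjusted p = 0.295). Gpc4 was widely spread, from 127 to 882 within MLO-Y4 low. Gpc3, a growth-restricting glypican, was above the limit on 3 of 12 arrays, all of them 2T3. Nrp1, a semaphorin and VEGF co-receptor that can carry heparan sulphate, differed by -0.46 (SE 0.39, limma adjusted p = 0.579), and by -1.13 without the arrays numbered 1 (adjusted p = 0.0255).

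Of the 10 core protein genes 6 were higher and 4 lower in C0 than in 2T3 low, and none passed the adjusted threshold. Sdc2 was higher in C0 by 1.17, Tgfbr3 by 1.30 and Nrp1 by 1.09, with limma adjusted p of 0.929, 0.929 and 0.953. Gpc3 differed by 0.12, Gpc1 by -0.68, Gpc4 by -0.04 and Sdc3 by -0.02. The median of the 10 core protein genes was 0.44 in this comparison and 0.032 in MLO-Y4 high against low, beside 0 over all spots in each.

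**Figure D4:**
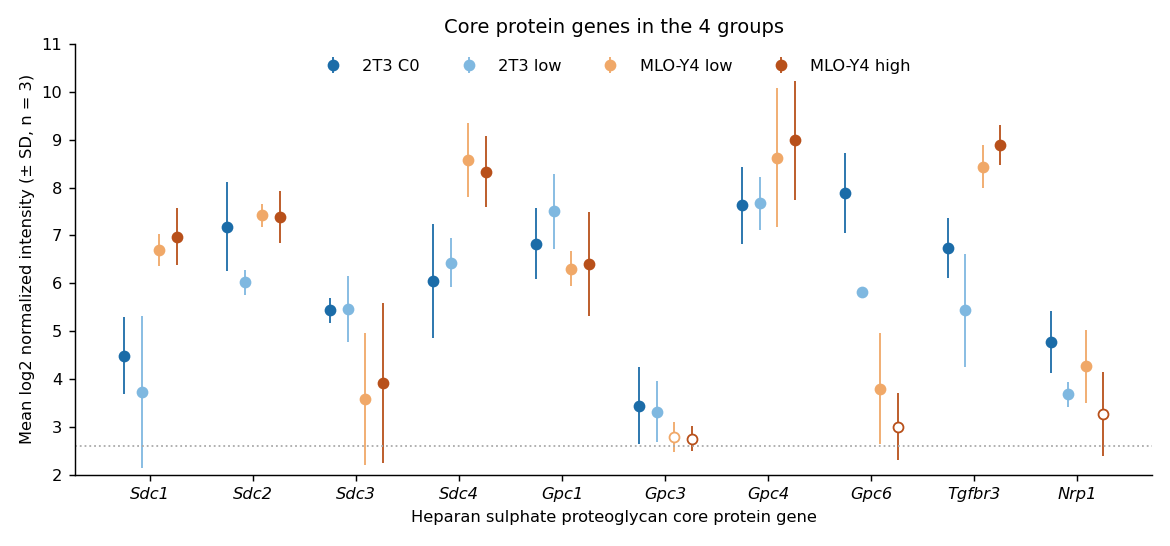
Mean log2 normalized intensity (± SD, n = 3) of 10 core protein genes in the 4 groups, with open circles where no array of a group was above its limit and a dotted line at the floor. The means of Sdc1, Sdc2, Sdc4, Gpc4 and Tgfbr3 are higher in both MLO-Y4 groups than in both 2T3 groups, and Gpc6 lies at 7.89 in C0 and 3.01 in MLO-Y4 high.

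Heparan sulphate is built and modified by a set of Golgi enzymes, and 17 of 45 listed genes for its synthesis, modification and breakdown had a spot. Between the lines 1 rose and 1 fell, a share of 11.8% that is near the 9.3% over all spots, with a median of -0.11 beside -0.032. With equal medians 3 rose and 1 fell. Hs6st2, a 6-O-sulphotransferase that adds sulphate to the chain, was lower in MLO-Y4, with a log2 difference of -3.20 (SE 0.39, limma adjusted p = 7.32e-04), from a geometric mean of 70.0 to 7.62. Its spot exceeded the limit on 6 of 6 2T3 arrays but on just 1 of 6 in MLO-Y4. Ugdh, which makes the UDP-glucuronate used for chain synthesis, rose 2.30-fold (log2 1.20, SE 0.25, limma adjusted p = 0.0144), from 461 to 1063. The chain polymerase gene Ext1 differed by 1.10 (limma adjusted p = 0.114) and the 2-O-sulphotransferase gene Hs2st1 by -2.33 (limma adjusted p = 0.0580), both named after their values were seen. None of the 17 passed in either density comparison.

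Of 43 measured ligands and receptors that bind heparan sulphate or depend on it (54 listed), 11 rose and 1 fell in MLO-Y4 (27.9%, against 9.3% of all spots), with a median of 0.50 beside -0.032. The list was drawn up with earlier results of these data known, so the share is a description and no excess is read from it. Ccl7, a monocyte chemokine, rose 319-fold (log2 8.32, SE 0.46, limma adjusted p = 4.01e-06), but it was above the limit on 1 of 6 2T3 arrays, so the fold rests on background there. Ror2, a Wnt5a receptor, rose by 3.12 (SE 0.24, limma adjusted p = 2.63e-05) and was likewise above the limit on 1 of 6 2T3 arrays. Ccl2, a further monocyte chemokine, was above the limit on all 12 arrays and rose 60.0-fold (log2 5.91, SE 0.57, limma adjusted p = 1.51e-04). The gene that fell was Cxcl12, a chemokine held on heparan sulphate, by 3.92 (limma adjusted p = 0.0114), named after its value was seen. Cxcl12 was above the limit on 6 of 6 2T3 and 3 of 6 MLO-Y4 arrays, so this size rests partly on background. None of the 43 passed with density.

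Partners that syndecans and glypicans work with inside the cell, in adhesion and in shedding comprised 44 listed genes, of which 36 had a spot. Between the lines 5 rose and 3 fell (22.2%, against 9.3% of all spots), with a median of 0.072 beside -0.032. This list too was drawn up with earlier results known, and no excess is read from its share. Thbs1, which encodes thrombospondin 1, a matrix protein that binds syndecans, rose 9.06-fold (log2 3.18, SE 0.42, limma adjusted p = 0.00110). Itga5, the fibronectin receptor subunit that acts with Sdc4 in focal adhesions, rose 7.13-fold (log2 2.83, SE 0.44, limma adjusted p = 0.00272). Zyx, a focal adhesion protein, rose by 2.21 (SE 0.47, limma adjusted p = 0.0143), a call lost without the arrays numbered 1 (limma adjusted p = 0.0809). The other calls, named after their values were seen, were the protease gene Plau (3.73) and the collagen receptor subunit Itga2 (1.74), which rose, and the GTPase gene Rhoa (-1.22), the Rac exchange factor gene Tiam1 (-1.17) and the membrane linker gene Rdx (-1.65), which fell. The count of 8 fell in each of the 12 fits that left out 1 array, to between 3 and 6. It was 3 without MLO-Y4 low replicate 2 or without MLO-Y4 high replicate 2, and with equal medians it was 4, all of them higher. Tiam1 was above the limit on 0 of 6 MLO-Y4 and 4 of 6 2T3 arrays, and Itga2 on 4 of 6 MLO-Y4 and 1 of 6 2T3 arrays. Plau was above it on 6 of 6 MLO-Y4 and 3 of 6 2T3 arrays, with a highest 2T3 value of 214 and a lowest MLO-Y4 value of 209. The sizes of these 3 differences rest partly on background. No partner gene passed with density.

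Proteoglycans that carry other chains were listed as 29 genes, of which 15 had a spot, and 1 rose between the lines (6.67%, against 9.3% of all spots, median -0.14). This was Cd44, the hyaluronan receptor, which rose by 2.43 (SE 0.62, limma adjusted p = 0.0343). The call was lost in 9 of the 12 fits that left out 1 array and without the arrays numbered 1 (limma adjusted p = 0.210).

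**Figure D5:**
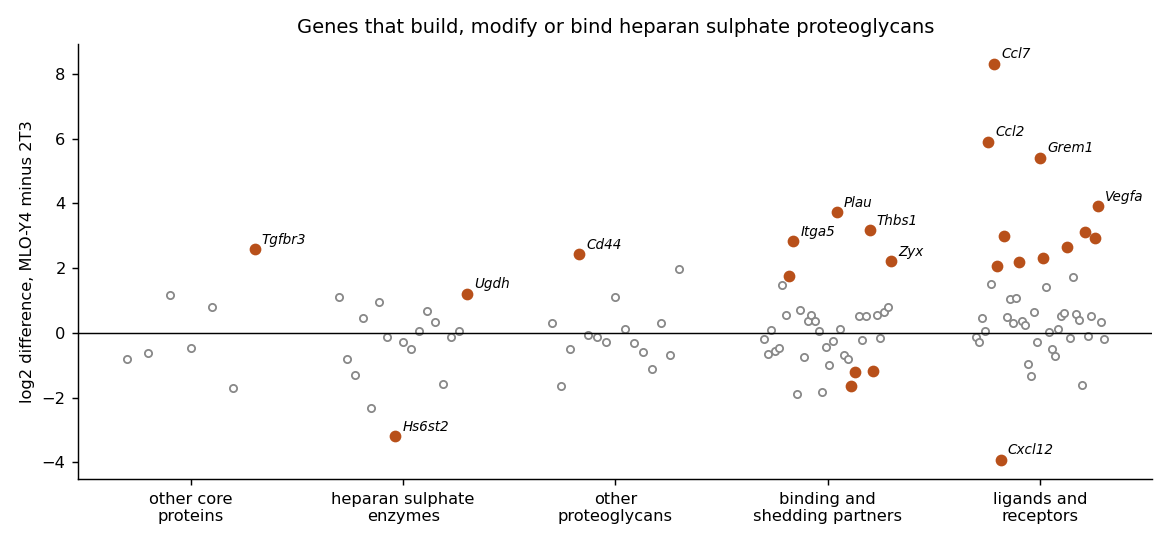
Log2 difference between MLO-Y4 and 2T3 (y axis) for every measured gene of the 5 lists (x axis), without Sdc1, Sdc4 and Gpc6, with filled points for limma adjusted p under 0.05. The ligands and receptors hold 11 filled points above 0 and 1 below, and the enzymes 1 on each side.

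The genes whose levels were most like each member over the 12 arrays were found among 2902 genes above the limit on at least 6 arrays. The points share their line, and each Pearson r is a description. Sdc1 was most like Tgfb1, the TGF-beta 1 gene (r = 0.962), followed by Ddt (0.951), Gnb4 (0.948) and Pon3 (0.937). Geometric means of Tgfb1 were 42.3 in C0, 32.5 in 2T3 low, 230 in MLO-Y4 low and 256 in MLO-Y4 high. With the line means taken out, the 4 genes most like Sdc1 were Dapk3 (0.872), Tgfb1 (0.862), Bex2 (0.860) and Pou3f2 (0.844). Tgfb1 alone was in both sets. Among the 2T3 low arrays Sdc1, Gnb4 and Pon3 were each above the limit on 1 of 3, Ddt and Dapk3 on 2 and Tgfb1 on 3. The r of these genes with Sdc1 thus rests partly on values at the floor or in the background.

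Sdc4 was most like Atox1 (r = 0.923), Ganab (0.923), Capg (0.913) and Rom1 (0.911), and with the line means taken out like Nfu1 (0.907), Mtx1 (0.900), Cdc42 (0.882) and Crip1 (0.838). Gpc6 was most like Dbp, a circadian transcription factor gene (0.959), Pola2 (0.932), the secreted Wnt modulator gene Sfrp2 (0.926) and Six2 (0.903). With the line means taken out, Gstt1 (0.855), Sfrp2 (0.847), Dbp (0.837) and Pola2 (0.806) led for Gpc6. Dbp stood at geometric means of 341 in C0, 58.7 in 2T3 low, 12.1 in MLO-Y4 low and 6.41 in MLO-Y4 high, and Sfrp2 at 2831, 1217, 12.6 and 8.92. Like Gpc6, Dbp and Sfrp2 were each above the limit on 1 of 3 MLO-Y4 low and 0 of 3 MLO-Y4 high arrays. Six2 was above it on 1 of 3 and 2 of 3. The r of these genes with Gpc6 thus rests partly on values at the floor or in the background. Between the members, r was 0.687 for Sdc1 and Sdc4, -0.659 for Sdc1 and Gpc6 and -0.766 for Sdc4 and Gpc6 over the 12 arrays. With the line means taken out these became -0.128, 0.294 and -0.139.

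The labelled cell types were set beside marker lists, with 5.83% of all spots higher and 3.48% lower in MLO-Y4 as the background. These lists were drawn up with earlier results of these data known. Their counts are a description and no independent check of cell type. Of 6 measured osteocyte markers 5 rose in MLO-Y4, Cd44 among them, and their summed normalized intensity ran from 700 to 1643 in 2T3 and from 5733 to 8283 in MLO-Y4. Phex, an osteocyte enzyme, was above the limit on 0 of 12 arrays. Of 9 osteoblast markers 0 rose and 2 fell in MLO-Y4, Msx2 and Col1a2, with sums from 12254 to 19028 in 2T3 and from 5884 to 12276 in MLO-Y4. Such sums follow the brightest spots. Sparc, which did not pass, held a large part of them, at 5861 to 13134 in 2T3 and 4314 to 8526 in MLO-Y4. Alpl, the alkaline phosphatase gene of mineralizing osteoblasts, had the opposite sign, with geometric means of 63.1 in 2T3 and 266 in MLO-Y4 (log2 2.08, SE 0.71, limma adjusted p = 0.111).

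Sdc1 is also a known marker of plasma cells and epithelia. Of 5 B cell and plasma cell markers 1 rose in MLO-Y4, Ms4a1 (log2 4.16, limma adjusted p = 1.48e-04), and 0 fell, with summed levels from 86.8 to 502 in 2T3 and from 335 to 947 in MLO-Y4. Ms4a1 and Cd79a were each above the limit on 10 of 12 arrays, Prdm1 on 3, Cd79b on 2 and Pou2af1 on 0. Of 6 epithelial markers none passed, and their sums ran from 37.5 to 431 in 2T3 and from 53.4 to 138 in MLO-Y4. On the 6 MLO-Y4 arrays Cldn4 was above the limit on 4, Krt19 on 3, Cldn7 on 2 and Cdh1, Epcam and Krt18 on 0. Of 11 macrophage and osteoclast markers 1 passed in each direction, Tyrobp lower and Csf1r higher, the latter above the limit on only 1 of 6 2T3 and 2 of 6 MLO-Y4 arrays. Within that list Ctsk was above the limit on 12 arrays, Cd68 on 9, Cd14, Mmp9 and Spi1 on 8 each and Ptprc on 0. Of 8 endothelial markers none passed, and of 3 adipocyte markers Pparg fell. The part of any of these cell types in the levels of Sdc1, Sdc4 and Gpc6 was not tested.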

How the data were processed

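Total RNA was measured on 12 arrays, 1 sample each, and the deposited values are linear spot intensities with background already subtracted, read as intensity from the values. No source used here names the scanner or the background method. Of 5030 spots, 4633 had 1 gene symbol in the platform annotation, 5 several and 392 none; 4624 symbols were updated through RefSeq and 9 kept.

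Arrays were quantile normalized, floored at the 25th percentile and taken to log2. A fit of 4 group means with limma 3.58.1 in R 4.3.3 (lmFit, eBayes, 8 residual degrees of freedom) was adjusted over all 5030 spots by Benjamini-Hochberg, and tested on simulated data. An earlier account of these data used equal medians; that scaling lets background readings set the scale of some arrays, and it is an alternative here. Other alternatives were medians over spots above the limit on all arrays, a floor at the 40th percentile, an offset of 50, a filter on spots above the limit on 3 arrays, a replicate block, each array left out, the arrays numbered 1 left out, and fits of the compared groups alone.

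The members, gene lists and tests were chosen with earlier results of these data known. Named genes were the members, every measured core protein gene, up to 3 genes per other list with the smallest p past the threshold in a comparison, and 4 most correlated genes per member and scale; others are said to be named after their values were seen. Same-numbered MLO-Y4 low and high arrays deviated together from their group means (r = 0.625, 0.475 and 0.505) and count as paired, as do those of 2T3 C0 with MLO-Y4 low (0.495, 0.276 and 0.414) and with MLO-Y4 high (0.526, 0.311 and 0.368). Those of 2T3 low with 2T3 C0 (0.0388, 0.0645 and 0.152) do not, nor with the MLO-Y4 groups. The 2T3 low arrays thus stood apart from the other groups in this respect. The part of this in the differences that involve 2T3 low, density in 2T3 included, was not tested. No 2 arrays held identical values. Some bone marker genes are not reported here.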

Additional observations from a re-analysis of the deposited data

How the results depend on the processing

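The 9 density results of Sdc1, Sdc4 and Gpc6 gave 180 values under the alternatives, and none had a limma adjusted p under 0.05. Those for the difference between density effects rest on values known when the genes were chosen. The 2T3 values of Gpc6 at each density had been seen as well. For Gpc6 in 2T3 C0 against low the adjusted p ran from 0.382 to 1 and the difference from 1.45 to 2.49. Of the counts of spots called with density, the single one that moved was that of 2T3 C0 against low. It was 3 (1 higher, 2 lower) with the floor at the 40th percentile, and 0 otherwise. Counts of list genes called between the lines moved as well. That of the partners fell from 8 to between 3 and 6 with each array left out. Spots called between the lines numbered 414 to 584 over the other settings and 354 to 462 with each array left out. With the replicate number as a block, 0 spots were called in each density comparison and 584 between the lines, and no call on the 3 genes changed. Within the 6 MLO-Y4 arrays alone, a setting added after seeing the data, the replicate block gave adjusted p of 0.809 for Sdc1, 0.804 for Sdc4 and 0.815 for Gpc6. The line differences ran from 2.51 to 3.15 for Sdc1, from 1.89 to 2.49 for Sdc4 and from -3.72 to -3.16 for Gpc6 with each array left out. Limits are the 3 arrays per group, 1 spot per gene, and signals near background for Sdc1 in sparse 2T3 and for Gpc6 in MLO-Y4.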

Other observations

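Among proteoglycans with other chains, 3 small leucine-rich proteoglycan genes had 95% intervals above 0 in 2T3 C0 against low, and they are named here after their values were seen. In this comparison 266 of all 5030 spots had an unadjusted limma p under 0.05, in either direction, so no shared response is read from the 3 genes. Dcn, the decorin gene, was 7.76-fold higher in C0 (log2 2.96, SE 0.62, limma adjusted p = 0.528), with geometric means of 162 in C0, 20.9 in 2T3 low, 36.2 in MLO-Y4 low and 63.1 in MLO-Y4 high. Omd, the osteomodulin gene of bone matrix, was higher by 2.16 (SE 0.52, limma adjusted p = 0.596) and was above the limit on 3 of 3 C0 arrays and 1 of 3 2T3 low arrays. Bgn, the biglycan gene, was higher by 1.32 (SE 0.55, limma adjusted p = 0.929), from 5423 in 2T3 low to 13569 in C0. None of the 15 measured genes of that list passed the adjusted threshold with density.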
